A study of Mus musculus with 6 samples.

Results

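Unstimulated macrophages without Foxo1 were compared with control macrophages on 2 of the 6 arrays of the series. Of 27361 gene names on the array, 17174 were well above background on both arrays, 251 of these were set aside as at least 2-fold brighter on the control array than on each of the other 5 arrays, and 16923 were described. The series asks how FoxO1 bears on MHC class II expression and on the antitumour effect of tumour-associated macrophages. Macrophages were derived from C57BL/6 marrow over 7 days in medium containing 10% L929-conditioned medium, which supplies macrophage colony-stimulating factor. Control cells (WT) were FoxO1 Fl/Fl and knockout cells (KO) were LysMcre FoxO1 Fl/Fl, so all cells of the series carried the floxed Foxo1 gene and KO cells alone carried Cre, under the control of the Lyz2 (lysozyme M) promoter. M0 cells received no further agent. The other arrays held M1 cells (100 ng/ml LPS with 20 ng/ml IFN-γ) and M2 cells (IL-4 and IL-13, each at 10 ng/ml) of both genotypes after 24 h. The labels give no age or sex, and do not say whether the RNA samples came from separate mice. With 1 array a side, no difference below has a replicate check, an error or a test, and loss of Foxo1 cannot be told apart from the presence of Cre.

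FoxO1 is a forkhead transcription factor that insulin and growth factor signalling, through PI3K and AKT, keep out of the nucleus. It is known for genes of cell cycle arrest, survival, metabolism and stress defence, and in macrophages for inflammatory receptor and cytokine genes. LysM-Cre deletes floxed genes in macrophages and granulocytes, but seldom in every cell. MHC class II molecules present peptides from phagosomes and endosomes to CD4+ T cells, and their genes depend on the transactivator CIITA, which itself binds no DNA but joins the RFX, CREB and NF-Y proteins on a shared promoter module.

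A level is the log2 processed signal minus the 75th percentile of its array, and a difference is KO minus WT on that log2 scale, so that a value of 1 is 2-fold. That percentile was 532 units on the WT M0 array and 599 units on the KO M0 array, and 66.0% and 67.7% of probes were well above background. WT M0 shared slide 1 with WT M1, while KO M0 lay on slide 2 with KO M1 and both M2 arrays. Slide and genotype therefore cannot be told apart in M0 or in M1, and the M2 pair alone compares genotypes within a slide. The 3 pairs share no array. All 31 genes of a macrophage identity list were well above background on both M0 arrays, with a median difference of -0.05. Ctsd, Mpeg1 and Tyrobp differed by 0.14, -0.11 and -0.01, and of the 31 genes Siglec1, a sialic acid-binding receptor of resident macrophages, alone was 2-fold apart (1740 units in WT, 511 in KO, difference -1.94). The RNA sample of WT M0 also carried liver transcripts. All 38 matched genes of a liver list were well above background there, against 16 on KO M0, 12 on WT M1, 30 on KO M1 and 18 on each M2 array.

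Foxo1 itself, the targeted gene, gave 1505 units on WT M0 and 224 units on KO M0. The difference was -2.92, or 7.56-fold lower in KO, and a second Foxo1 probe gave -2.80. The signal in KO stayed well above background. The deleted stretch of the gene is not stated in the labels, so whether these probes lie in it is not known. The brighter probe lies on chromosome 3, chr3:52150183-52150242 on the plus strand (mm9), and is shown because it reports the deletion check.

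Foxo1 probe: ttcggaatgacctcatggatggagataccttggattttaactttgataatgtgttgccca

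Of the related factors, Foxo3 gave 57.2 units in WT and 55.3 in KO (difference -0.22). Foxo4 gave 24.4 and 50.3 units (0.87). Foxo6 stayed at background on each of the 6 arrays. For Lyz2, whose locus carries Cre, the brighter probe differed by 0.49 and the other by -0.81, so no direction is given.

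Across the 16923 genes the median difference was 0.09, and 92.0% lay within 2-fold. In KO, 990 genes (5.85% of those described) were higher by 2-fold or more, and 368 (2.17%) were lower by as much. The counts of genes kept in each list below are to be set beside these shares. At least 4-fold, 50 genes were higher and 41 lower. The higher genes made up 72.9% of the genes 2-fold apart. That share was 61.5% with no gene set aside, 48.1% after normexp background correction (148 higher, 160 lower), 96.9% when that correction was fitted on all spots, and 38.1% among the 7704 genes with a WT M0 level of at least 0 (64 higher, 104 lower). Of the 990 higher genes, 781 (78.9%) had a WT M0 level under -3, against 28.1% of all genes described. Furthermore, 783 of the 990 (79.1%) were lower on both slide 1 arrays than on all 4 slide 2 arrays, a pattern found in 15.6% of all genes. Of the 368 lower genes, 46 (12.5%) were higher on both slide 1 arrays, against 2.87% of all genes. The M0 values enter both this pattern and the choice of the 990 and 368 genes, so these shares are descriptions. The part of signal strength and of the slide in these counts was not tested.

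**Figure D1:**
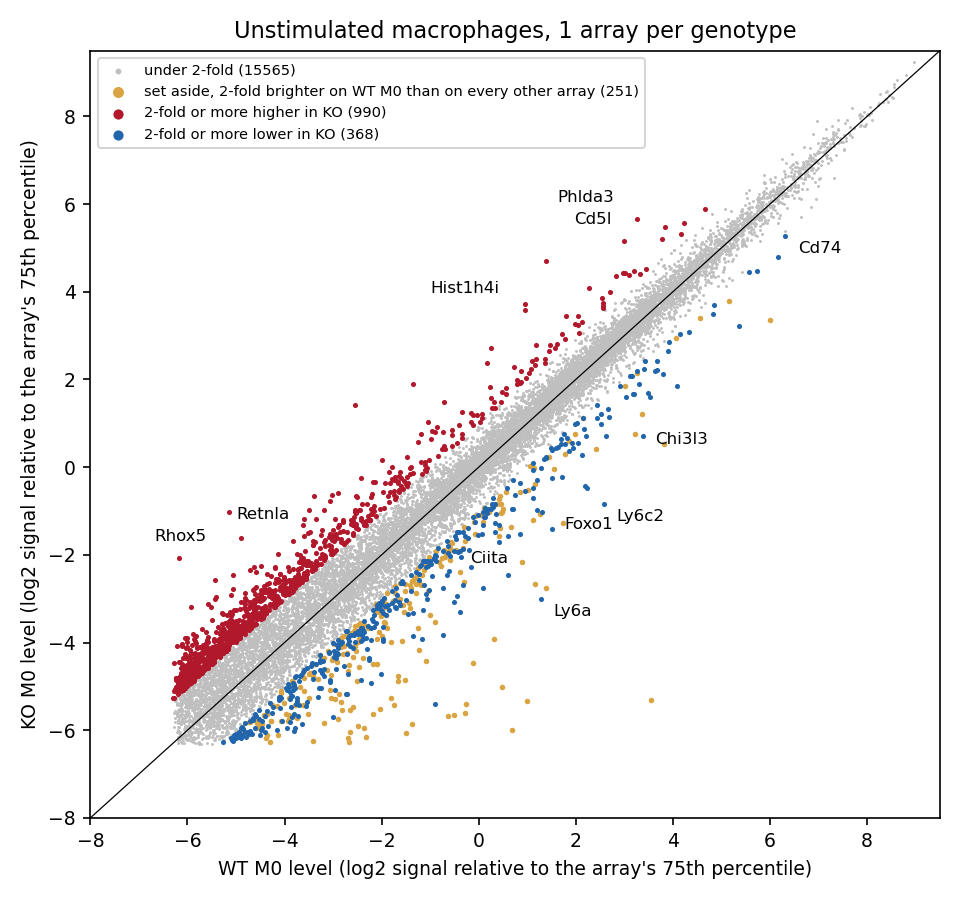
Level of each gene on the WT M0 array (x axis) and on the KO M0 array (y axis), both as log2 signal relative to the array's 75th percentile; the line marks equal levels. Red points (990) are at least 2-fold higher in KO and crowd at low levels, blue points (368) are at least 2-fold lower, gold points (251) were set aside and are brighter on WT M0 by the rule, and grey points lie within 2-fold.

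Genes of MHC class II antigen presentation were lower in KO. Of 9 members well above background on both arrays, 6 were at least 2-fold lower and 0 higher, and the median difference was -1.17, beside 0.09 over all genes described. Ciita, the transactivator, gave 963 units in WT and 209 in KO. Its difference of -2.38 was the largest of the list. Among the peptide-binding chains, H2-Aa gave 6584 units in WT and 2755 in KO (-1.43). H2-Ab1 gave 28482 and 13354 units (-1.26), and its 4 probes ranged from -1.55 to -1.26. H2-Eb1 gave 7910 and 3740 units (-1.25). All 3 chain genes were thus lower by more than 2-fold. Cd74, the invariant chain that fills the peptide groove until the endosome, gave 42410 and 22997 units (-1.05). H2-DMa, a subunit of the peptide exchange factor, gave 1713 and 860 units (-1.17), whereas its partner H2-DMb1 gave 5676 and 4130 units (-0.63). The dim H2-DMb2 (-0.13) and H2-Oa (0.40) lay within 2-fold, and on both arrays H2-Ea-ps, H2-Eb2 and H2-Ob could not be told from background. In bulk RNA, fewer cells of a type and less RNA per cell cannot be told apart.

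The proteins that bind class II promoters did not share this difference. Of 11 genes, among them those of RFX, NF-Y and CREB subunits, 0 were 2-fold apart, with a median of -0.02. Irf1, an interferon-induced factor that acts on Ciita, differed by -0.31, and Nfyb, an NF-Y subunit, by 0.35. MHC class I and peptide loading genes were closer to equal than class II genes, with 0 of 16 at 2-fold and a median of -0.26. H2-K1, a class I heavy chain, gave -0.14 and its partner B2m 0.14.

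In M2, within slide 2, the class II median was -0.91, with 2 of 9 members at least 2-fold lower (of the M0 genes measured in M2, 3.33% were lower by 2-fold or more and 2.35% higher). Ciita differed there by -1.33 and H2-Aa by -1.15. In M1, across slides as in M0, the median was -0.16, and Ciita differed by -0.13.

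The class II probes and promoters are shown because these genes carry the question of the series. The H2-Aa probe lies at chr17:34421285-34421344 on the minus strand and the H2-Eb1 probe at chr17:34452050-34452511 on the plus strand (mm9); the H2-Eb1 probe has 60 bases over a longer genomic span, so it crosses a splice junction. The promoters are the 250 bases before the start in RefSeq (GRCm38.p6): chr17:34287824-34288073, minus strand, for H2-Aa, and chr17:34305617-34305866, plus strand, for H2-Eb1. Capitals mark CCAAT on either strand, the letters of the box that NF-Y binds.

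H2-Aa probe: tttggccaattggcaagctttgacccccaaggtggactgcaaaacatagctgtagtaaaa
H2-Eb1 probe: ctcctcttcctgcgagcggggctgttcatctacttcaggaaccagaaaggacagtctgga
H2-Aa promoter: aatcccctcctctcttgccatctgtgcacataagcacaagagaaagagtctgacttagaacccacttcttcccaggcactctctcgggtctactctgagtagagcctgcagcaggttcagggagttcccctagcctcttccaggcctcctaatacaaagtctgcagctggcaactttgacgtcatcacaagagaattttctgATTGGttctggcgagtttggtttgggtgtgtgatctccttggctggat
H2-Eb1 promoter: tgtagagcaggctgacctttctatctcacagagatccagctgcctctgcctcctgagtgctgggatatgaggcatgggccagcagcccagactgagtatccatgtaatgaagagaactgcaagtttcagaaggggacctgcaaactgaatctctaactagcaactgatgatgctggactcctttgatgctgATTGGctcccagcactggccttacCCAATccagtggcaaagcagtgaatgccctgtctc

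In H2-Aa the match starts 48 bases before the start, and H2-Eb1 holds 2 matches, the farther 59 bases before it. All 6 class II genes with a promoter in the RefSeq table held CCAAT, against 37.5% of 27025 genes. The FoxO core TGTTTAC, searched on both strands, was in 0 of these 6 promoters and in 3.54% of all. The 6 were H2-Aa, H2-Eb1, H2-DMa, H2-DMb1, H2-DMb2 and H2-Oa. Ciita, H2-Ab1 and Cd74 had no promoter in the table and were not searched, so nothing is said of them. Such matches describe letters only and are not binding sites.

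**Figure D2:**
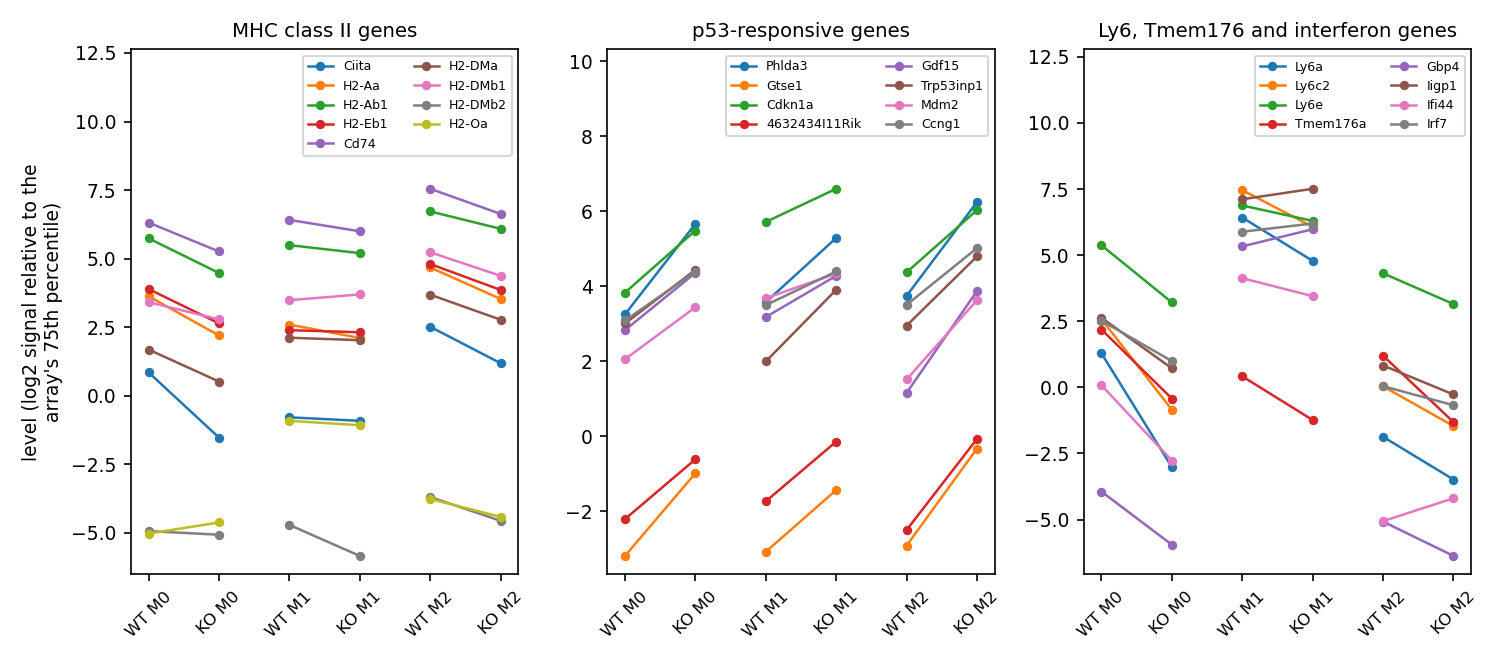
Levels (log2 signal relative to the array's 75th percentile) of named genes on the 6 arrays, with WT and KO of a state joined by a line; there is 1 array per point and no error bar, and values not well above background are plotted as measured. Ciita, H2-Aa, H2-Ab1, H2-Eb1, H2-DMa and Cd74 are lower in KO M0 and KO M2 with smaller gaps in M1, the p53-responsive genes drawn are higher in KO in all 3 states, and the interferon-inducible GTPase genes Gbp4 and Iigp1 are lower in KO in M0 and M2 but not in M1.

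Interferon-inducible genes were also lower in unstimulated KO cells. Among the GTPases induced by interferon-gamma, which attack the vacuoles of intracellular pathogens, all 16 genes measured had a negative difference, 9 of them at least 2-fold, with a median of -1.11. Iigp1 gave 3290 units in WT and 986 in KO (-1.91). Gbp8 gave 249 and 80.1 units (-1.81) and Gbp4, dim on both arrays, 34.6 and 9.68 units (-2.01, or -0.56 after normexp correction). Gbp7 (-1.40), Tgtp1 (-1.29) and Gbp5 (-1.23) followed, with a second Tgtp1 probe at 0.34. The brighter Irgm2, Igtp and Irgm1 differed by -0.44, -0.26 and -0.39. Under LPS and interferon-gamma the order of the genotypes was turned, with a median of 0.51 in M1. In M2 it was -0.51. The interferon-stimulated response element, searched as GAAANNGAAA on both strands, was in 9 of 10 GTPase promoters in the table, against 3.46% of all promoters. The gamma-activated site TTCNNNGAA was in 6 of the 10, against 8.13%. The Gbp5 promoter, chr3:142496684-142496933 on the plus strand (GRCm38.p6), is shown as a member that holds both, with the response element in capitals.

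Gbp5 promoter: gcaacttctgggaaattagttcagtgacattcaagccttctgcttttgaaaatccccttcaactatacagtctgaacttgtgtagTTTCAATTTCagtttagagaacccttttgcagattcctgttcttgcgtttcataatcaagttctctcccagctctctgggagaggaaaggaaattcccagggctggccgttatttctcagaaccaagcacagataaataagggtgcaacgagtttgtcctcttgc

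Type I interferon response genes had a negative difference in all 32 genes measured, 6 of them at least 2-fold and 0 higher, with a median of -0.76. Ifi44 gave 562 units in WT and 88.0 in KO (-2.85). Irf7, the factor that amplifies type I interferon production, gave 3053 and 1192 units (-1.53). Oasl1 (-1.18), Zbp1 (-1.17), Ifit3 (-1.14) and Ddx58, the RNA sensor RIG-I (-1.02), were the other 4. Ifitm3, Rtp4 and Ifi204, the brightest within 2-fold, gave -0.94, -0.44 and -0.37. The M1 median was 0.32. In M2, within slide 2, the list median was near 0, and of 32 genes 0 were lower by 2-fold and 1, Mx1 (2.71), was higher. Ifi44 and Irf7 differed there by 0.87 and -0.72. Of the interferon-induced chemokines, Cxcl9 gave 111 and 28.2 units (-2.14).

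Genes of Ly6C-high inflammatory monocytes, blood cells that can give rise to macrophages, formed the list with the most genes lower by 2-fold once genes set aside were left out: 12 of 24 were lower and 1, Gata2 (1.03), higher, with a median of -0.97. Ly6a, which encodes the surface protein Sca-1, gave 1297 units in WT and 74.0 in KO (-4.30, 19.7-fold). Ly6c2, the Ly6C antigen, gave 3178 and 333 units (-3.43). Ly6c1 gave 79.5 and 16.5 units (-2.44), and the sequences of Ly6 family members are close enough that probes may share signal. Ms4a4c (-2.31) and Hp, haptoglobin (-3.06), were lower as well. Ccr2, the receptor for the monocyte chemoattractant CCL2, gave 478 and 123 units (-2.12), and Ly6e 22027 and 5545 units (-2.16). Ifi27l2a, Ms4a6c and Itga4, the brightest members within 2-fold, gave -0.82, -0.79 and -0.90. In M2 Ly6a, Ly6c2 and Ccr2 differed by -1.61, -1.50 and -2.26, and in M1 by -1.64, -1.39 and -0.91. The M2 list median was -0.56. From WT M0 to WT M1 the level rose from 1.29 to 6.42 for Ly6a, 2.58 to 7.46 for Ly6c2 and 1.30 to 5.89 for Ms4a4c. It fell from 0.60 to 0.25 for Hp and from -0.15 to -1.98 for Ccr2, and the median level of the list fell from -1.09 to -1.98. The part of the interferon response in these M0 differences was not tested, nor was that of liver RNA in the Hp value.

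Among markers of other cells, many neutrophil granule and stromal genes were lower in KO as well. The B cell, T and NK cell, erythroid, mast cell, dendritic cell and osteoclast lists did not share this direction with the processing used here. Their medians lay between -0.18 and 0.47. The B cell, T and NK and mast cell genes were dim, with median levels of -5.21, -5.58 and -5.83 on WT M0. Over the alternatives the median ranged from -0.04 to 0.47 for B cell, -0.39 to 0.28 for T and NK and -0.51 to -0.11 for dendritic cell genes. The erythroid, mast cell and osteoclast medians stayed positive. Of 30 matched neutrophil granule genes, 25 were well above background on WT M0 and 23 on KO M0, and the log2 of their summed signal, relative to the 75th percentile, was 8.64 and 8.19. Elane, Cxcr2 and Retnlg were above background on WT M0 but not on KO M0. Stfa3 was above background on KO M0 but not on WT M0 (at least 2.04-fold higher in KO), and Stfa1, Stfa2, BC100530 and Olfm4 were so on neither. The rule set aside 11 of the 22 genes measured on both, so the 11 left (0 higher, 2 lower, median -0.24) leave out those brightest on WT M0. With none set aside, 13 of 22 were at least 2-fold lower, with a median of -1.50, where 3.6% of all 17174 genes were that much lower. S100a9, a calcium-binding protein of granulocytes, gave 33892 and 6129 units (-2.64, and -2.60 in M2), and the granule gene Ngp -3.07 (-2.48 in M2). S100a9 and Ngp were among the genes set aside, which are lower in KO M0 by the rule. Lcn2, lipocalin-2, which withholds iron from bacteria, gave 318 and 42.0 units (-3.09) and -2.60 in M2. On KO M2, Lcn2 stood at a level of -6.55 and was not well above background. Of 33 stromal and fibroblast genes, 32 were well above background on both arrays, all but Lum, with a summed level of 6.50 in WT and 5.45 in KO. The rule set aside 16. Of the other 16, 8 were lower and 1 higher, with a median of -1.05, among them Col1a2 (5269 and 2240 units, -1.40) and Col6a1 (-1.94). The higher gene was Col4a2 (2.40), whose other probe gave -1.43. The part of these cells in the other differences was not tested. B cell (1 higher and 0 lower of 8), T and NK cell (2 and 0 of 11), erythroid (1 and 0 of 10), mast cell (2 and 1 of 8), dendritic cell (1 and 1 of 13) and osteoclast genes (0 and 1 of 14) had medians of 0.47, -0.18, 0.27, 0.33, -0.13 and 0.21. These counts leave out genes set aside: Cd79b (-2.03) and Ebf1 (-1.28) of the B cell list, Thy1 (-2.32) of the T and NK list and 1 osteoclast gene, all lower in KO. The higher B cell gene, Cr2, was at -0.01 after normexp correction, and Cd4, 1 of the 2 higher T and NK genes, gave -0.81 with its other probe. Of the T and NK genes, 3 were above background on WT M0 alone and 1 on KO M0 alone. Of the B cell genes, Ms4a1 and Pax5 were above background on neither array, as were the cytotoxic genes Prf1, Gzma, Gzmb and Ncr1 of the T and NK list.

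Some acute phase and complement genes were lower in KO M0 as well. Saa2, serum amyloid A, had the largest negative difference of all named genes kept (285 units in WT, 14.2 in KO, -4.49). Orm1, orosomucoid, gave 66.7 and 11.5 units (-2.71, or -0.96 after normexp correction). These genes are made in liver as well as in activated macrophages. Saa2 stood at -0.90 on WT M0 and at -1.47 on WT M1, where the liver list had medians of -0.90 and -7.68, and the part of liver RNA in their M0 values was not tested. In M2, Saa2 differed by 0.05 and Orm1, not well above background on both M2 arrays, by 0.61. Saa3, another serum amyloid A gene, lay within 2-fold in M0 (1567 and 1155 units, -0.61) and differed by 0.10 in M2. Of 20 complement genes, 4 were lower and 0 higher, with a median of -0.28. Serping1, the C1 inhibitor, gave 131 and 22.6 units (-2.71). Cfb, factor B of the alternative pathway, gave 809 and 201 units (-2.18), and C3, the component on which all pathways meet, 10742 and 5081 units (-1.25). C4b differed by -1.72 (-0.59 after normexp correction). The very bright C1qc, Cfp and C1qb differed by -0.05, -0.29 and -0.25. In M2, Cfb and C3 differed by -1.25 and -1.40.

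Of 11 membrane-spanning Tmem176 and Ms4a genes kept, 6 were lower and 0 higher, with a median of -1.12. Tmem176a, a channel-like protein of dendritic cells and macrophages, gave 2421 and 446 units (-2.61, with -1.65 in M1 and -2.51 in M2). Its neighbour Tmem176b gave 4942 and 1005 units (-2.47), but was among the genes set aside. Ms4a4d differed by -2.92, and Ms4a4b by -2.12 with another of its probes at 0.23. Ms4a7, a bright macrophage gene, differed by 0.06.

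Genes of alternative activation were more often lower than higher in KO, though not all. Of 26, 2 were higher and 7 lower by 2-fold, 8 differences were positive and 18 negative, and the median was -0.38. In M2, within slide 2, 8 of the 26 were at least 2-fold lower and 0 higher, with a median of -0.54. Retnla, the secreted protein RELM-alpha, gave 17.8 units in WT and 195 in KO (3.28), and a second probe gave 2.63. Chi3l3 (Chil3), the chitinase-like protein Ym1, gave 5554 and 982 units (-2.67), and Chi3l4 (Chil4) 426 and 92.8 units (-2.37). Retnla and Chi3l3 are known to be induced by IL-4, and in M2 Retnla, Chi3l3 and Chi3l4 differed by -0.33, -0.24 and 0.07. The lectin gene Clec10a gave 6121 and 1820 units (-1.92). The haemoglobin scavenger receptor gene Cd163 gave 63.3 and 20.0 units (-1.84), and Arg1, arginase, which competes for the substrate of nitric oxide synthase, 37.8 and 9.28 units (-2.20). The differences of Cd163 and Arg1 were -0.76 and -0.60 after normexp correction. Clec7a, Pparg and Mrc1, the brightest within 2-fold with Tgm2, differed by 0.19, -0.15 and -0.22. Among scavenger receptors, 2 were higher and 3 lower of 21. Cd5l, a secreted scavenger protein that supports macrophage survival, gave 4229 and 21417 units (2.17, with 2.48 in M1 and 3.06 in M2), while Axl, a receptor for apoptotic cells, gave 1512 and 501 units (-1.76).

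The p53-responsive genes were the list with the highest median. Of 26 measured on both arrays, 15 were at least 2-fold higher and 0 lower, 25 had a positive difference, and the median was 1.10. A further member, Perp, was well above background on WT M0 alone and at least 3.64-fold lower in KO. Perp also met the rule for setting genes aside. Phlda3, an inhibitor of AKT, gave 5069 units in WT and 30380 in KO (2.41). Cdkn1a, the cyclin-dependent kinase inhibitor p21, gave 7573 and 26816 units (1.65). Both were higher in KO in all 3 states. Gtse1 gave 58.4 and 303 units (2.20), and Ddias (listed as 4632434I11Rik) 115 and 392 units (1.59). Gdf15, a stress cytokine, gave 3787 and 12281 units (1.53), and Trp53inp1 4280 and 12978 units (1.43). Mdm2, the ubiquitin ligase that degrades p53, gave 2212 and 6506 units (1.39). Ccng1, Sesn2, Pmaip1 and Bbc3 lay between 1.13 and 1.30. The cell death gene Bax differed by 0.62, Fas by 0.24 and Ak1 by -0.02, and Trp53 itself by 0.38. In M2, within 1 slide, 21 of the 26 were at least 2-fold higher and 0 lower, with a median of 1.65. In M1 the median was 0.88. The FoxO core was in 3 of 21 promoters of the list, against 3.54% of all. The p53 half-site, searched on both strands, was in 7 of the 21, against 8.2% of all. Cdkn1a (chr17:29090729-29090978, plus strand, the first of 2 listed starts, the other holding 0 matches) and Mdm2 (chr10:117710759-117711008, minus strand, both GRCm38.p6) are shown as members with a match, in capitals.

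Cdkn1a promoter: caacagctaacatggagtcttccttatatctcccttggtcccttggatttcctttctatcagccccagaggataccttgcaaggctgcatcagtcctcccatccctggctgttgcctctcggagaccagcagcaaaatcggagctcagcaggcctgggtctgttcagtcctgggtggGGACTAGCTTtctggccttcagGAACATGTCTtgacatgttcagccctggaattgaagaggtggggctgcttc
Mdm2 promoter: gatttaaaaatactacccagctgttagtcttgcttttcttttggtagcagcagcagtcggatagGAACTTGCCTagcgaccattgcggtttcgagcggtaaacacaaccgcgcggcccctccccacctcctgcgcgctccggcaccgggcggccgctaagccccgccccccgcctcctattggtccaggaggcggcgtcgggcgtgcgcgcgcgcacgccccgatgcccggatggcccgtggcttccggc

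Histone genes of the replication-dependent clusters were mixed, with 6 higher and 1 lower of 31 and a median of 0.23. Hist1h4i gave 1023 and 7234 units (2.65), and 2.32 and 2.30 in M1 and M2. Hist1h1c, a linker histone, gave 7252 and 22141 units (1.44). Hist1h2bp, Hist1h2bq, Hist3h2ba and Hist2h2be differed by 2.22, 1.92, 1.61 and 1.10, and members of these clusters are near-identical, so their probes may share signal. Hist1h2ac was well above background in KO but not in WT, where it was at least 2.01-fold lower. Hist1h1b was the lower gene (-1.19). Cell cycle and DNA replication genes had 1 higher and 4 lower of 49, 44 negative differences and a median of -0.40. Uhrf1, which carries DNA methylation through replication, gave 395 and 155 units (-1.52). Rrm2 (-1.52), Tk1 (-1.12) and Mcm5 (-1.07), of nucleotide supply and origin licensing, were the other 3, while Pcna gave 0.46. In M2, 25 of the 49 were at least 2-fold lower, with a median of -1.07.

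Amino acid stress genes under ATF4 had 6 higher and 0 lower of 27, with a median of 0.39. Of the 27, 23 had a positive difference and 4 a negative one: Phgdh (-0.77), Nupr1 (-0.44), Psat1 (-0.34) and Psph (-0.28). Asns and Ddit3 gave 0.28 and 0.11. Sesn2, an mTORC1 inhibitor also under p53, gave 3481 and 9537 units (1.28), and Slc7a11, the cystine importer, 70.1 and 194 units (1.30). Ddit4 and Trib3 both differed by 1.18 and Atf5 by 1.09. Of 35 genes listed as FoxO targets, 2 were higher (Cdkn1a and Ddit4), 1 was lower (Pik3ip1, an inhibitor of PI3K, 382 and 193 units, -1.15) and 32 lay within 2-fold, with a median of 0.04. These counts are near the shares over all genes described, of which 5.85% were higher and 2.17% lower. The autophagy genes Gabarapl1 and Map1lc3b gave 0.60 and 0.04, and Sesn1 -0.29. The FoxO core was in 3 of 29 of their promoters. Of 33 insulin and PI3K signalling genes, Foxo1, Irs1 (-1.25) and Pik3ip1 were lower and 0 higher. Akt1 differed by 0.06 and Igf1 by 0.13.

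The counts of the lists that follow are to be set beside the shares over all genes described, of which 5.85% were at least 2-fold higher and 2.17% lower. Inflammatory cytokine genes had 2 higher and 2 lower of 17. Cxcl2, a neutrophil chemoattractant, gave 41.4 and 133 units (1.52), and Il1rn, the interleukin-1 receptor antagonist, 1470 and 4110 units (1.31), while Il10 gave 188 and 72.7 units (-1.54). Of 21 chemokine and receptor genes, 3 were lower, among them Ccr2 and Ccl7 (-1.15), and 0 higher. Of 7 Fc receptor genes, Fcrls (-1.52) and the inhibitory receptor Fcgr2b (-1.11) were lower. Metalloproteinase genes had 2 higher and 2 lower of 16, with the elastase Mmp12 at 1.28 and Timp1 at -1.05. Among transcription factors, Id2 (1.15) and Bhlhe41 (1.10) were higher and Stat4 (-1.95) and Irf7 lower of 46. Glycolysis (0 of 34), LXR and PPAR lipid (0 of 29) and Toll-like receptor genes (0 of 23) had no member 2-fold apart among those kept. Lysosome (1 of 43, Cst7), sterol and fatty acid synthesis (2 of 33), NRF2 (1 of 33), heat shock and immediate early (2 of 26) and costimulatory genes (1 of 12) had few. The NRF2 genes had small differences mostly of 1 sign, 30 positive and 3 negative of 33. Their median was 0.28 in M0, beside 0.09 over all genes described, and 0.21 in M2. With no gene set aside, the lower genes numbered 6 of 20 for metalloproteinases, 5 of 23 for chemokines and receptors, 3 of 8 for Fc receptors, 2 of 31 for LXR and PPAR lipid genes, 1 of 24 for Toll-like receptor genes and 1 of 27 for heat shock and immediate early genes.

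**Figure D3:**
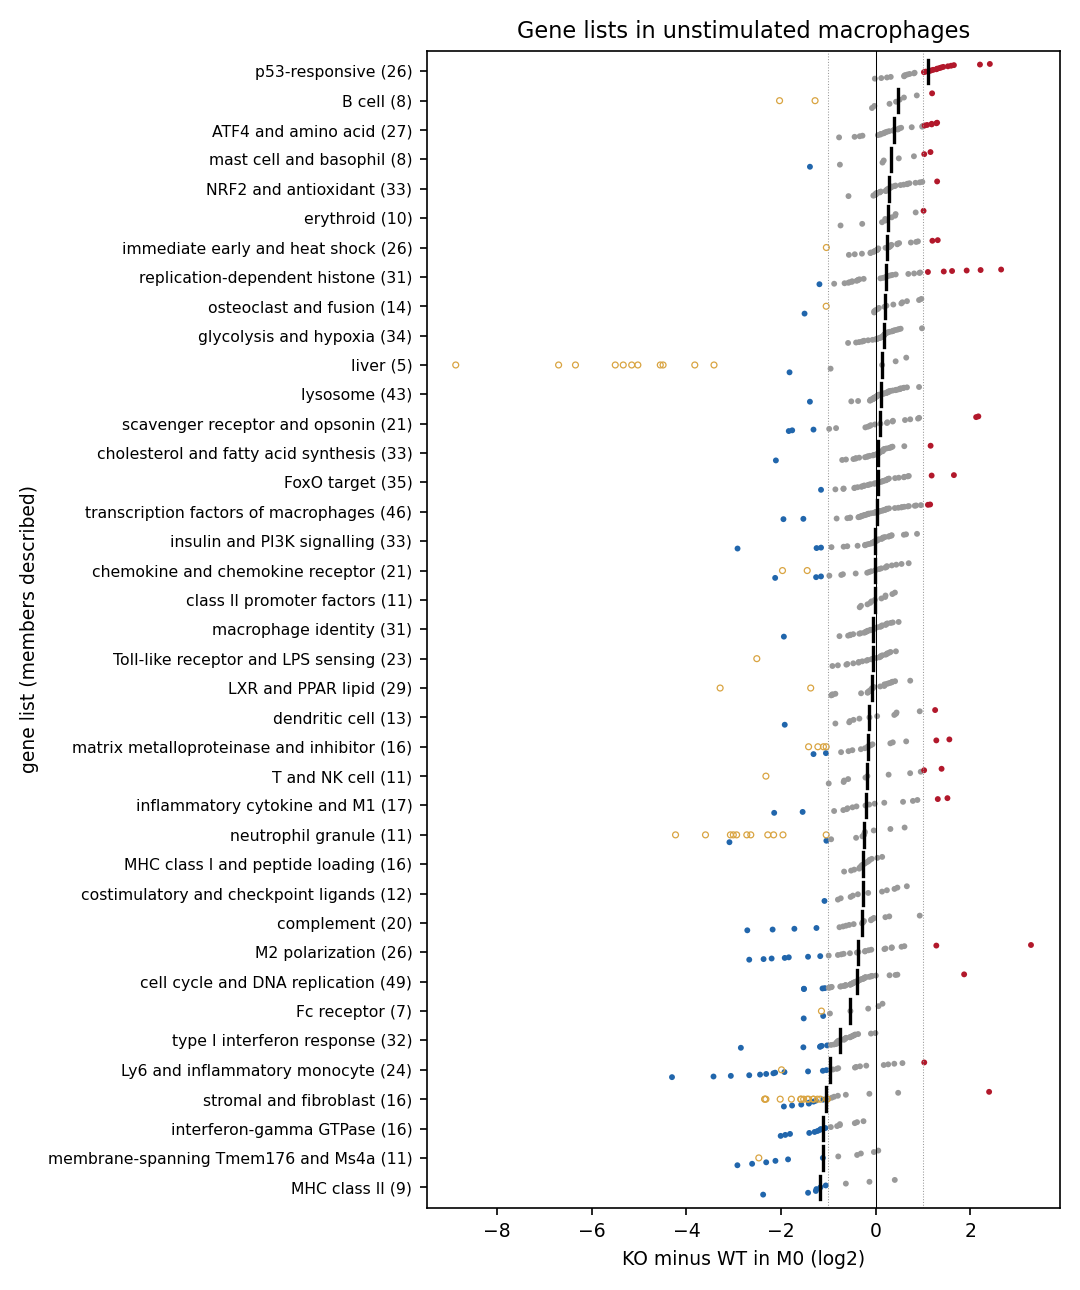
KO minus WT in M0 (log2, x axis) of the members of each gene list (y axis, with the number described in brackets), ordered by median, which is the black bar. Red points are at least 2-fold higher, blue points at least 2-fold lower and grey points within 2-fold; open gold circles are genes set aside, which the medians leave out. Medians run from -1.17 for MHC class II to 1.10 for p53-responsive genes.

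Of the 15 genes with an official-style symbol and the highest difference, Rhox5, an X-linked homeobox gene normally of the reproductive tract, gave 7.38 and 143 units (4.10, with 3.23 in M1 and 3.97 in M2). Slc23a3 gave 12.4 and 101 units (2.86, with 3.51 in M2). Beside Retnla, Hist1h4i and Phlda3, the others were Grin2d (2.77), Slc16a8 (2.75), Olfr522 (2.72), Cldn26 (2.59), Fam212b (2.51), Slc25a29 (2.46), Aloxe3 (2.46), Apoa4 (2.44), Olfr1221 (2.43) and Wnt9a (2.41). In M2, 6 of the 15 were higher by 2-fold or more and 4 were lower by as much, and 9 of the 15 were lower on both slide 1 arrays than on all of slide 2. The 6 include Aloxe3, which was not well above background on both M2 arrays. Grin2d, a glutamate receptor subunit, stood at 0.96 on WT M0 and 0.73 on WT M1, and at 3.73 on KO M0 and 4.62 on WT M2. 1700007K13Rik, which has no official-style symbol and was chosen after its values were seen, had a difference of 4.11 in M0, beside 5.26 in M2 and 0.98 in M1. After normexp correction Aloxe3, Apoa4, Cldn26, Olfr1221 and Olfr522 were under 2-fold, at 0.72 to 0.98, and Rhox5 was at 1.45. The 15 lowest were, beside Saa2, Ly6a, Ly6c2, Lcn2, Hp, Ms4a4d, Foxo1, Ifi44, Serping1, Orm1, Chi3l3 and Tmem176a, the urea transporter gene Slc14a1 (236 and 39.6 units, -2.74), Tcstv3 (-2.71) and Plbd1 (-2.56). In M2, 9 of these 15 were at least 2-fold lower and 0 higher. The 9 include Foxo1 itself, and also Lcn2 and Tcstv3, which were not well above background on both M2 arrays.

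Over the 16460 M0 genes also measured on both M2 arrays, 327 were at least 2-fold lower in KO M0. Of these, 115 were at least 2-fold lower in M2 (35.2% of the M0 list and 21.0% of the M2 list of 548), 6 were 2-fold higher, and 85.3% had the same sign, against 54.0% of all genes with a negative M2 difference. Of 976 genes at least 2-fold higher in M0, 86 were so in M2 (8.81% of the M0 list and 22.2% of the M2 list of 387) and 120 were at least 2-fold lower. The same sign was found in 27.5%, against 46.0% of all genes. In M1, where slides differ as in M0, 579 of 926 higher genes were also higher (62.5% of the M0 list and 42.4% of the M1 list of 1366, itself 8.59% of 15898 genes), and 33 of 315 lower genes were also lower (10.5% and 22.8% of the M1 list of 145, 0.912% of genes). In M1, 24 of those 315 were at least 2-fold higher, and 2 of the 926 at least 2-fold lower. The genes 2-fold apart the same way in all 3 states were 39 higher and 21 lower.

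**Figure D4:**
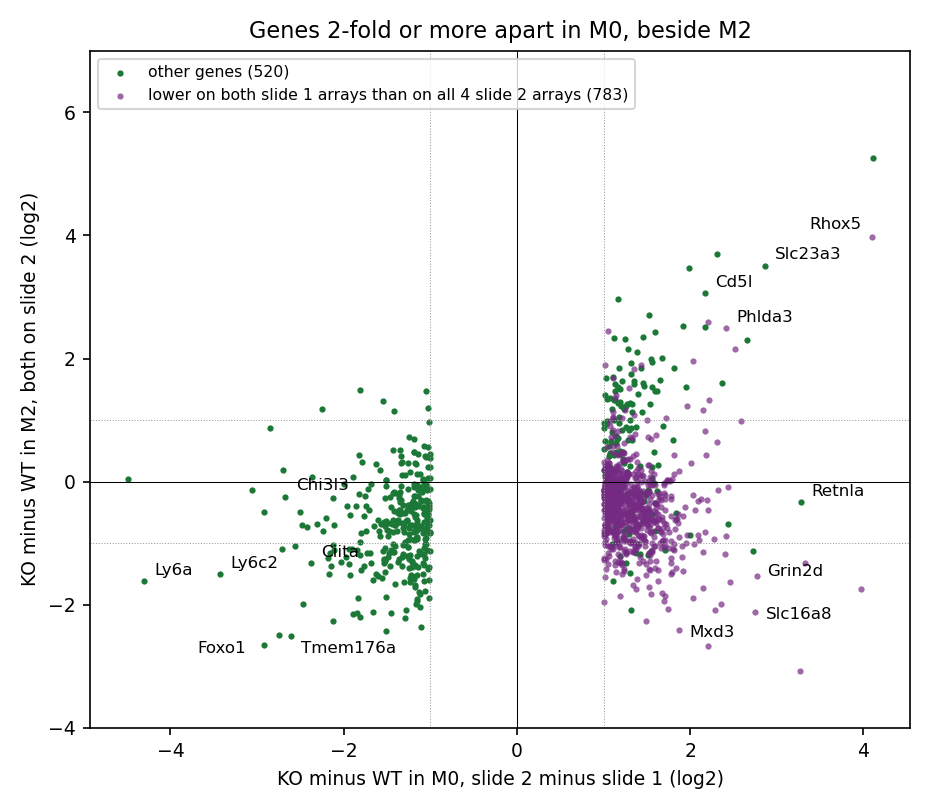
KO minus WT in M0 (x axis, log2, arrays on different slides) and in M2 (y axis, log2, arrays on the same slide) for genes at least 2-fold apart in M0 and measured in M2; dotted lines mark 2-fold. Purple points (783) were lower on both slide 1 arrays than on all 4 slide 2 arrays and lie mostly below 0 in M2, and green points (520) are the other genes.

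The 251 genes set aside were lower in KO by the rule that chose them. The 8 with the largest difference were secreted or metabolic products of hepatocytes: Serpina1d (-8.87), Fgb (-6.70), Mup3 (-6.34), Mup4 (-5.50), Cyp3a41a (-5.33), Mug1 (-5.16), Gc (-5.15) and Apoa2 (-5.02). Alb, albumin, was not well above background on KO M0 and was at least 918-fold brighter on WT M0. Not all the genes set aside are liver genes: 11 of them were in the liver list, 11 in the neutrophil list and 16 in the stromal list. Nor did the rule remove every liver gene: 5 of the liver list were kept, of which Cyp3a11 (-1.82) was 2-fold lower and 0 were higher. Apoc1, a lipoprotein gene that macrophages also express, gave 7462 and 861 units (-3.29). The B cell receptor gene Cd79b gave -2.03. In M2, 41 of the 211 measured there were at least 2-fold lower in KO and 1 higher, with a median of -0.49. Of genes well above background on 1 of the M0 arrays alone, 214 of 561 were at least 2-fold brighter on WT M0 and 285 of 1206 on KO M0.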

How the data were processed

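RNA of each sample was labelled with Cy3 and hybridised to a 1-colour Agilent array. The authors deposited the scanner output, a spot intensity per probe made with Feature Extraction version 10.7.3.1 as the file headers state, with background already subtracted in the processed signal. A table of log2 values was deposited as well, whose scaling and centring are not given in the sources used here; its column medians were 5.39 to 5.41, and each column followed its own array (Pearson r of at least 0.99886 across probes). It served as an alternative.

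Control spots and 79 to 164 outlier spots of 43379 per array were left out, and 37 of 41174 probes fell out because some array had no usable spot. Each array's 75th percentile (532 to 628 units) was subtracted after log2. No spot was saturated, and replicate spots of a probe on an array had a median SD of 0.0422 to 0.0626 (log2), which is not a replicate error. The brightest probe, by mean over all arrays, stood for a gene; probes of a gene differed in KO minus WT with a pooled SD of 0.322 over 6130 genes, and this SD served as the spread when alternatives were compared. The number of arrays limits the precision. A bound ("at least N-fold") sets the bright array against the lowest well-above-background signal of the dim array, or the probe's own value where higher.

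Members and gene lists were chosen with earlier results of these data known. The lists held 1067 symbols, of which 1021 matched. Named were the FoxO genes, Lyz2, the class II genes, the 15 highest and lowest genes with an official-style symbol, up to 6 members each way and 3 for contrast of each list, and 8 genes set aside; Apoc1, Cd79b, S100a9, Ngp, Tmem176b, Ebf1, Thy1, Mx1, Trp53, Ak1, Fas, Bax and others named beside them were chosen after their values were seen. Symbols were updated through RefSeq (GRCm38.p6), used for names and promoters only; probe positions are mm9. Alternatives were median and quantile scaling, normexp (limma 3.58.1, R 4.3.3, offset 50), the authors' table, the mean of all probes and other filters. The planned normexp fit was made on unflagged spots.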

Additional observations from a re-analysis of the deposited data

Results flagged for a closer look

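For 6 named genes the difference between KO and WT was at least 2-fold in opposite directions in M0 and in M2. Each value is 1 array against 1 array, and the difference between the states was not tested. Grin2d differed by 2.77 in M0 and -1.53 in M2, Slc16a8 by 2.75 and -2.13, and Olfr522, an olfactory receptor gene, by 2.72 and -1.12. The mitochondrial carrier gene Slc25a29 differed by 2.46 and -1.63, with its other probe at 0.00 in M0. The collagen gene Col4a2 differed by 2.40 and -1.17, with its other probe at -1.43 in M0, and Mxd3, a MAX-binding repressor, by 1.87 and -2.41. The M0 arrays lay on different slides and the M2 arrays on the same slide.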

How the results depend on the processing

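No paired analysis was possible because each genotype and state has 1 array, so no replicate number is shared within a state; a fit of genotype over the 3 states was not run. Of the 990 higher and 368 lower genes in M0, normexp correction left 148 and 160, and the 7704 genes with a WT M0 level of at least 0 held 64 and 104, a filter chosen after seeing the data. Without a filter on dim probes there were 2928 and 775, and with no gene set aside 619 were lower. Normexp fitted on all spots, also added after seeing the data, gave 4642 and 147 and moved the median of all genes from 0.09 to 0.20; on KO M0 that fit took in an outlier spot whose mean minus background was -6211 units, so the planned fit left such spots out. The class II median ranged from -1.46 (that fit) to -0.84 (no dim filter, with undetected members counted). Under quantile normalization 313 genes were at least 2-fold higher in both M0 and M1, against 579. The cause was not tested for these counts. Median and quantile scaling, the authors' table, the mean of all probes and the filter on all 6 arrays kept the higher count between 806 and 948 and the lower between 288 and 408. Of 128 named genes 2-fold apart, 127 kept their direction after normexp correction and 85 stayed 2-fold apart; the exception, Cr2, went from 1.19 to -0.0106. Of 127 with a value under quantile normalization, 123 stayed 2-fold apart, and in the authors' deposited values 122 did. Of the 990 higher genes, 781 had a WT M0 level under -3, where signal is closest to background.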
